A study of Mus musculus with 6 samples.

Results

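Interferon-stimulated genes were examined in hepatic stellate cells from mouse liver, kept in culture. These cells store vitamin A in the healthy liver and turn into collagen-producing myofibroblasts when activated. The genes were a list of 41 named by symbol, with no measured value in the rule, and 40 of them were rows of the 13341-gene table of normalized counts. Epsti1 was not analysed here. Cells labelled Nbr1 knock-out (3 libraries) were compared with cells labelled wild type (3 libraries), all from liver, grown for 4 days in DMEM with 10% serum under basal conditions, so no library came from cells given interferon, DNA or a STING ligand. The labels give no strain, age, sex or deletion design, and do not say whether the 3 biological replicates came from separate animals, so p-values measure the spread between these libraries. Libraries took 200 ng RNA each and were read from transcript 3′ ends. A normalized count is a read count divided by a factor of its library. One read was worth between 0.84 and 1.33 normalized counts, and the libraries held 1508518 to 2383879 reads. Because each transcript gives its reads from the 3′ end, values do not grow with transcript length and levels of different genes can be set side by side.

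Interferons act through paired receptors, IFNAR1 with IFNAR2 for type I interferons and IFNGR1 with IFNGR2 for interferon-gamma. Janus kinases on these receptors phosphorylate STAT proteins. STAT2 and IRF9 are subunits of the complex ISGF3, which binds the interferon-stimulated response element, and the gamma-activated site is a separate element of promoters that answer to interferon-gamma. The genes so induced encode antiviral proteins, nucleic acid sensors, GTPases that guard intracellular membranes, and the pathway's own STAT and IRF factors. Many are transcribed at a low level in cells that have met no infection. STING, a sensor pathway for DNA in the cytosol, leads through IRF3 to interferon-beta, and by its title the series concerns the action of p62 and NBR1 on STING.

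Likeness between libraries followed more than the genotype label. Nbr1 knock-out libraries 1 and 3 correlated at r = 0.981 across 10540 tested genes, and wild-type libraries 2 and 3 at 0.984, while wild-type library 1 reached 0.857 and 0.856 with the other wild-type libraries. By their deviations from the group means, Nbr1 knock-out libraries 1 and 3 fell together with wild-type library 1 (set A), and Nbr1 knock-out library 2 with wild-type libraries 2 and 3 (set B). Differences within each set are given below beside the results they touch, and each set has only 1 library of one of the labels. Nbr1, which 3′ end reads cannot check for a deletion elsewhere in the gene, averaged 189.2 ± 14.1 normalized counts in the knock-out label and 256.9 ± 46.1 in the wild-type label (SD, n = 3 each). Sqstm1, which encodes p62, averaged 773.7 ± 113.7 in the knock-out label and 15.9 ± 7.1 in the wild-type label, although p62 is a widely expressed protein. The near absence of Sqstm1 goes against the wild-type label, and Nbr1 itself did not pass the limma test described below (adjusted p = 0.22). Knock-out and wild type therefore name the labels throughout, and each direction below rests on them. Of 14 stellate cell and fibroblast markers 9 had a row, among them Col1a1, Dcn, Hand2 and Lhx2, and 5 had none in the table used here (Des, Lrat, Reln, Hgf and Rgs5). The summed level of the 9 was 16200 to 20020 normalized counts in the knock-out label and 7625 to 10280 in the wild-type label. Col1a1, Col1a2, Vim and Dcn made up most of this sum, so it mainly shows the level of these genes. Of the 9 markers 5 passed the limma test described below as higher. Macrophages, dendritic cells and lymphocytes carry high levels of many interferon-stimulated genes. Of 16 macrophage markers 3 had a row, with a summed level of 16.6 to 27.5 normalized counts in the knock-out label and 12.6 to 14.7 in the wild-type label. No dendritic cell marker of 7 and no lymphocyte or natural killer cell marker of 11 had a row. Markers of other liver cells were present too. Of 6 cholangiocyte markers 4 had a row, at a summed level of 541 to 571 in the knock-out label and 139 to 151 in the wild-type label. Of these Sox9, which made up most of the sum in the knock-out label, was higher there (478.6 ± 15.3, against 15.3 ± 5.8 in the wild-type label, log2 change 4.94, limma adjusted p = 0.000338). Spp1 was lower (29.9 ± 3.0, against 74.6 ± 4.6 in the wild-type label, log2 change -1.29, adjusted p = 0.0101). Krt19 was lower with no overlap but did not pass (33.7 ± 3.0, against 49.4 ± 1.9 in the wild-type label, log2 change -0.54, adjusted p = 0.148). Krt7, at 9.6 ± 1.5 in the knock-out label and 7.1 ± 3.1 in the wild-type label, was not tested. Epcam and Cldn4 had no row. Of 8 hepatocyte markers 5 had a row (18.1 to 61.7 in the knock-out label and 45.4 to 58.1 in the wild-type label), and of 9 endothelial markers 2 had one (35.2 to 70.0 in the knock-out label and 35.3 to 132 in the wild-type label). Of 8 mesothelial markers 7 were present, 1 of which (Upk3b) was called lower, at a summed level of 1307 to 1581 in the knock-out label and 1808 to 2113 in the wild-type label. The part of these markers in the results below was not tested.

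The promoters of 7 of these genes are shown to set those that passed the test beside classical targets of ISGF3. The windows are from RefSeq on build GRCm38.p6, run from 250 bases before to 50 bases after the annotated start, and are written 5′ to 3′ on the strand of the gene. Capitals mark each match, on either strand, to the core of the interferon-stimulated response element, searched as GAAA, any 2 bases and GAAA again, and neighbouring matches can overlap. Ifi47, Xaf1 and Lgals3bp passed the test between genotypes, Irgm1 is a family member of Ifi47, and Ifit1, Isg15 and Rsad2 are antiviral genes.
Ifi47 (chr11:49076337-49076636, plus strand): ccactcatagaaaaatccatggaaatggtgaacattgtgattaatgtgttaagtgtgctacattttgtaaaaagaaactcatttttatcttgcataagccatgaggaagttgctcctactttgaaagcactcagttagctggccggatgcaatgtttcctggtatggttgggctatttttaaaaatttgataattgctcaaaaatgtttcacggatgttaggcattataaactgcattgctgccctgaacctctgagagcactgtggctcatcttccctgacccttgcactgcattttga
Xaf1 (chr11:72301379-72301678, plus strand): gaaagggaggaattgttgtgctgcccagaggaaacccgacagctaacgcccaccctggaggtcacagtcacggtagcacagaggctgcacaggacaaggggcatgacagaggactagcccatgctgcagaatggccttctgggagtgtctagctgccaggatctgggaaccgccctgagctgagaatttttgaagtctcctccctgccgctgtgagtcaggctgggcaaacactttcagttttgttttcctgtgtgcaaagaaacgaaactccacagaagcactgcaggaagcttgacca
Lgals3bp (chr11:118401910-118402209, minus strand): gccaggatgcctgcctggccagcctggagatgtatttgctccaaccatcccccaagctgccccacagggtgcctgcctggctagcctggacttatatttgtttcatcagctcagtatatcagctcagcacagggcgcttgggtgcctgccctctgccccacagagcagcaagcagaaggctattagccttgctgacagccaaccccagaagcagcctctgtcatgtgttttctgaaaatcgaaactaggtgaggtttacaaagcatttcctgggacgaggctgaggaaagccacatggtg
Irgm1 (chr11:48871371-48871670, minus strand): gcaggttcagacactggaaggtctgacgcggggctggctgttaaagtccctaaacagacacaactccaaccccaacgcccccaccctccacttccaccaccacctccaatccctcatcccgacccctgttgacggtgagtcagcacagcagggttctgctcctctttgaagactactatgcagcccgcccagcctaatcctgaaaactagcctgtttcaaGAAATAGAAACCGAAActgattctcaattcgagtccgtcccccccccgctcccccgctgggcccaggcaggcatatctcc
Ifit1 (chr19:34640639-34640938, plus strand): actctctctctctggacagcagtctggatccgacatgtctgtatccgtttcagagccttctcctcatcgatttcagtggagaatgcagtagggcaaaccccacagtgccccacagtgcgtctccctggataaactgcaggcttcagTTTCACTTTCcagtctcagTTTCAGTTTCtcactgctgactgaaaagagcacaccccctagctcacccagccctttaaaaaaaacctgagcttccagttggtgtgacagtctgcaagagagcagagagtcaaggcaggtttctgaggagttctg
Isg15 (chr4:156200769-156201068, minus strand): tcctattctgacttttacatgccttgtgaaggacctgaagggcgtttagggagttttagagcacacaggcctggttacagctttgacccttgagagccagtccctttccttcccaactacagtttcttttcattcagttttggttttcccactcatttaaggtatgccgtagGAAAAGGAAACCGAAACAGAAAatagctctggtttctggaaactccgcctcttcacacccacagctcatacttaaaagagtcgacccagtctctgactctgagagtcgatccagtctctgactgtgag
Rsad2 (chr12:26456403-26456702, minus strand): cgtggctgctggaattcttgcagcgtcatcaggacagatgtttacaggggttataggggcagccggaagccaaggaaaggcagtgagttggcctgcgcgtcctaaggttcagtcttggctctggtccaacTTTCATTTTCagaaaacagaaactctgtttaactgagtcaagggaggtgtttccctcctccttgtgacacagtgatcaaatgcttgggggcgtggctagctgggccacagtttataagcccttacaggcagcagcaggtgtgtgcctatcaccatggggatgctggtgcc
Of the 40 genes, 32 had a window in the RefSeq table, and 14 of these (43.8%) held the core in at least 1 window, compared with 3.99% of all 27025 genes in that table. Isg15 held 3 overlapping matches and Irgm1 held 2. The gamma-activated site, searched as TTCNNNGAA, was present for 8 of the 32 genes (25%) and for 9.55% of all genes in the table. None of Ifi47, Xaf1 and Lgals3bp held an exact match to either motif. Ifi27 had no window in the table. A match of letters is a description of the sequence and does not show binding. Near matches were not searched, so a window with no exact match can still hold such an element.

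Basal levels were low for most of the list. Only Ifitm3 averaged above 500 normalized counts over the 6 libraries, 4 genes averaged 100 to 500, 24 averaged 10 to 100 and 11 averaged under 10. The median gene of the list averaged 36.1 normalized counts, below the table's median of 53.4, and 13 of the 40 genes lay above that median. Together the 40 genes took 0.135% to 0.173% of the reads in the knock-out label and 0.111% to 0.126% in the wild-type label. Ifitm3, whose product blocks fusion of viruses with endosomal membranes, made up 31.0% to 37.8% of the list's summed level in the knock-out label and 20.5% to 31.5% in the wild-type label. Without Ifitm3 the summed level was 1814 to 2157 normalized counts in the knock-out label and 1709 to 1850 in the wild-type label, ranges that overlap.

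**Figure D1:**
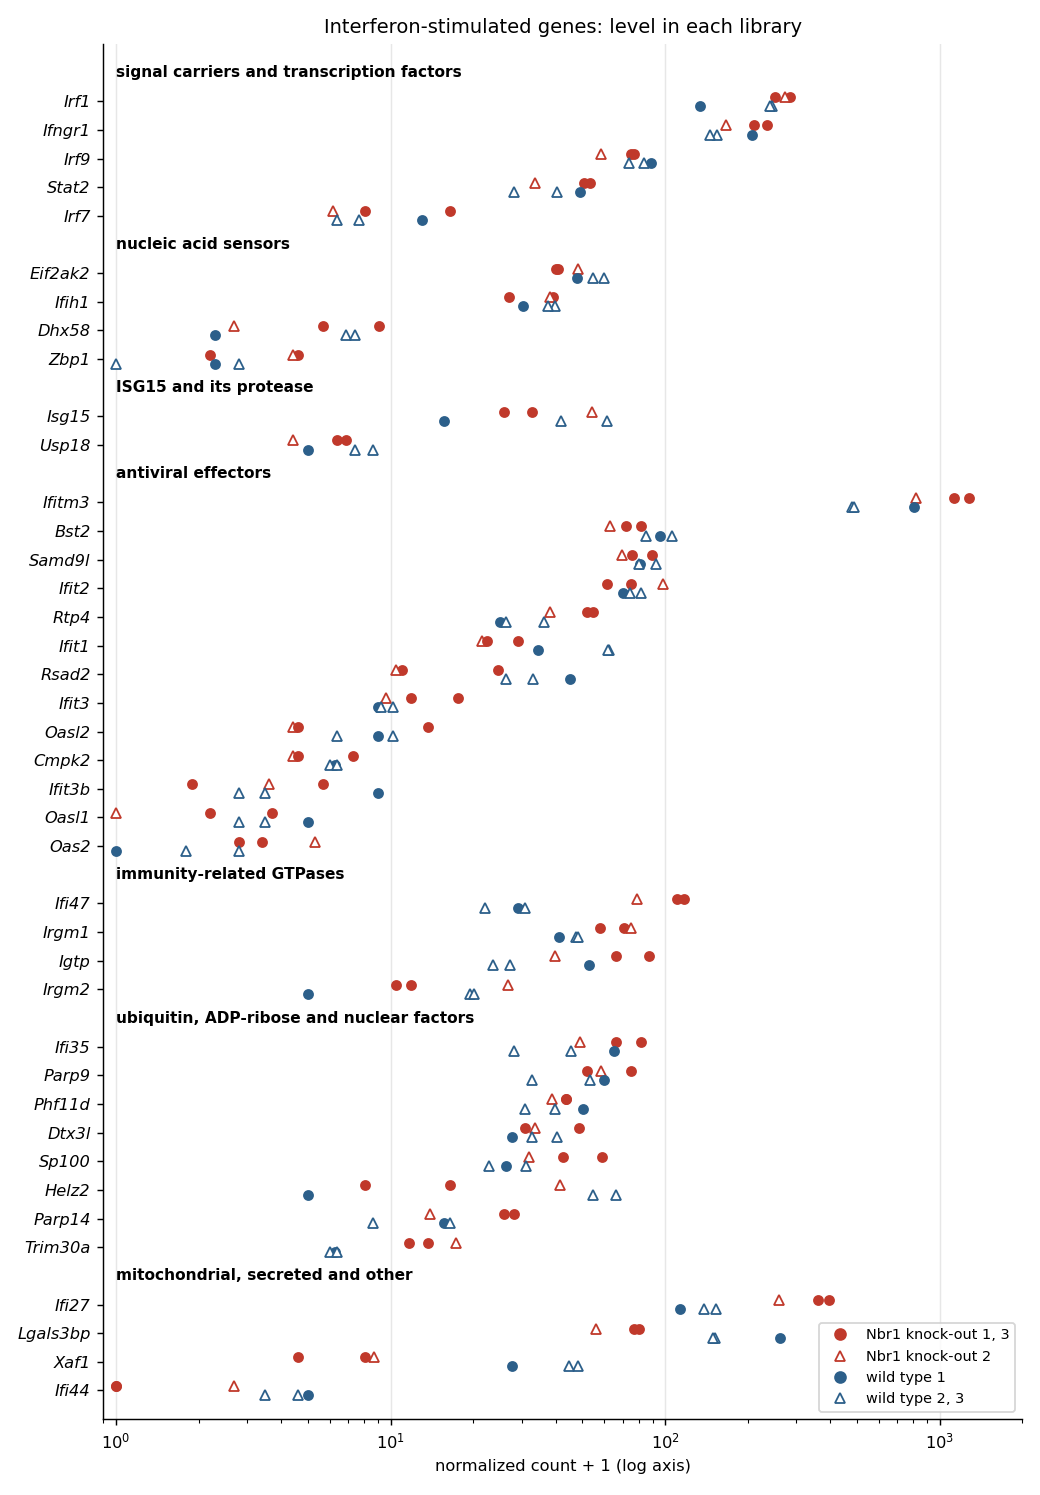
Level of each of the 40 interferon-stimulated genes in each library, as normalized count + 1 on a log axis, grouped by role, with Nbr1 knock-out libraries in red above wild-type libraries in blue. Filled circles are set A (knock-out 1 and 3, wild type 1) and open triangles set B (knock-out 2, wild type 2 and 3). Ifitm3 stands highest, at 477.8 to 1279 normalized counts, and 11 genes average under 10.

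Between the labelled groups, few of these genes changed, and they changed in both directions. A gene entered the test when 3 or more libraries held 10 or more normalized counts. The test was limma on log2(normalized count + 1), two-sided, with p adjusted over all 10540 tested genes. Every log2 change, standard error (SE) and adjusted p of a gene below is from this test unless another is named. Of the 40 genes 29 passed the filter, Trim30a only through the knock-out libraries and Xaf1 only through the wild-type libraries. Of these, by the labels, Ifi47 and Ifi27 rose and Xaf1 and Lgals3bp fell in the knock-out. These 4 were 13.8% of the 29, beside 6.92% of all tested genes (4.67% higher and 2.25% lower). edgeR called the same 4 genes, where it called 7.27% of all tested genes, and DESeq2 called these and Ifit1, where it called 9.02%. At an unadjusted p under 0.05 there were 11 genes of the list, 7 higher and 4 lower, and 22.6% of all tested genes. The median log2 change over the 29 genes was 0.23, beside -0.01 over all tested genes, and 19 of the 29 changes were positive. With no filter the median over all 40 genes was 0.10, beside -0.02 over the whole table. In RNA of whole cultures, a different share of cells of a type and a different amount of RNA per cell cannot be told apart. Of the genes whose promoter window held an exact match to the response element core, 12 were tested and none passed. Their log2 changes lay between -1.26 and 1.16. Of those whose window held no exact match 13 were tested, and Ifi47, Xaf1 and Lgals3bp passed. Near matches were not searched, so this does not compare genes with and without a response element.

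The number of calls depended on single libraries. Without Nbr1 knock-out library 1 or 3, limma called 0 of the 29 genes (7 and 9 had an unadjusted p under 0.05), beside 1.9% and 2.19% of all tested genes, and without knock-out library 2 it called 3 (3.21% of all). Without wild-type library 2 or 3 it called 2 and 1 (3.11% and 3.03% of all). Without wild-type library 1 it called 8, the 4 above and Ifit1, Ifitm3, Igtp and Trim30a, beside 21.1% of all tested genes. With a term for the 2 library sets, which were drawn from these same data, it called 10, beside 26.5% of all. The 10 were the original 4 with Ifitm3, Irf1, Irgm1 and Trim30a higher and Ifit1 and Rsad2 lower. The set term and the omission of wild-type library 1 each passed many genes of the whole table. A call made only there is not particular to the gene.

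**Figure D2:**
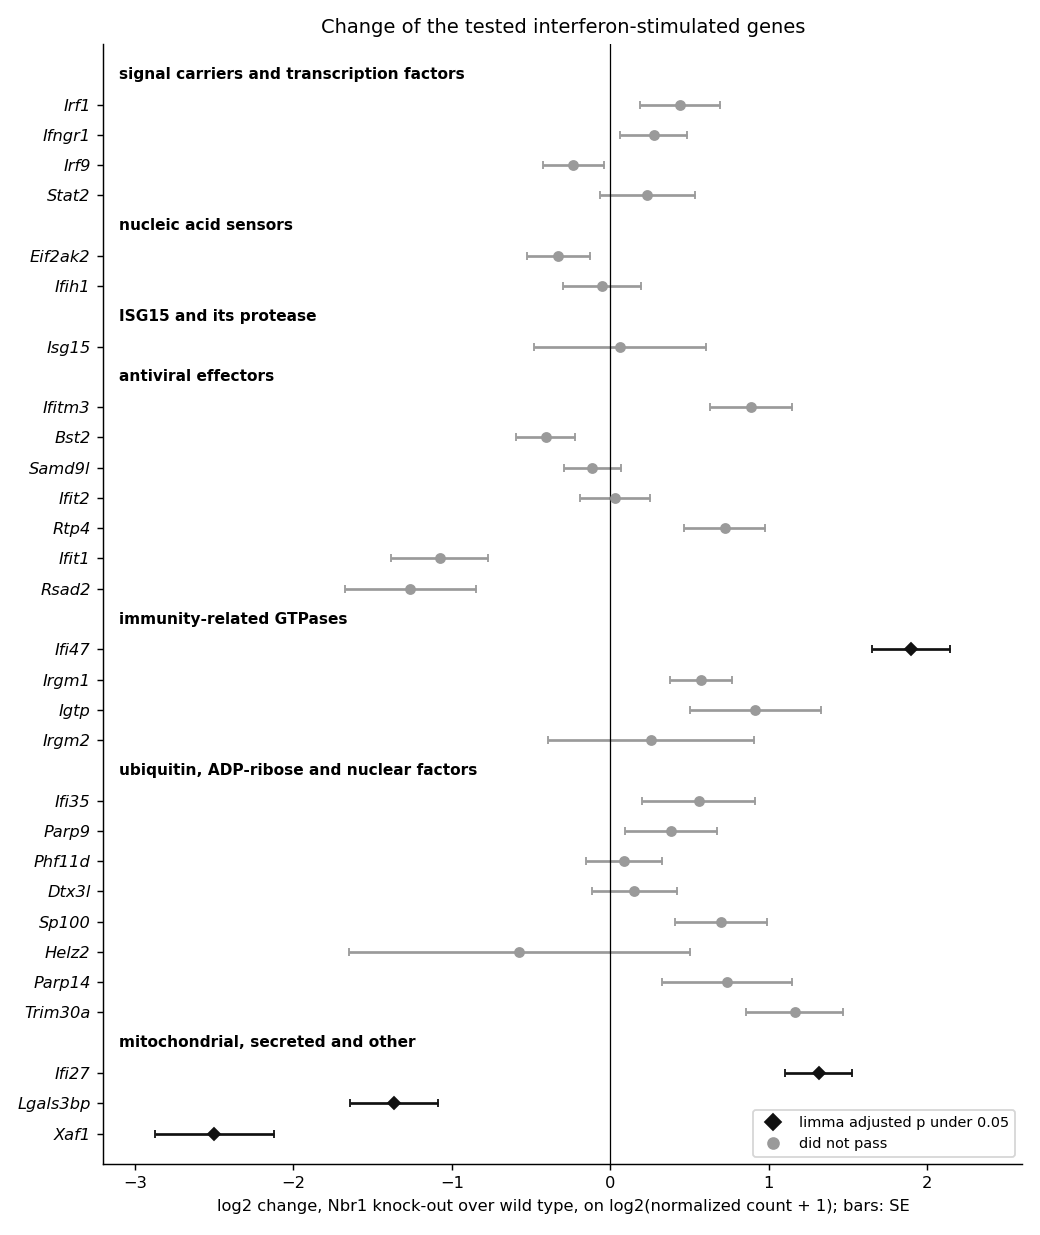
The log2 change (Nbr1 knock-out over wild type, on log2(normalized count + 1), bars: SE) of the 29 tested interferon-stimulated genes, grouped by role. Black diamonds passed limma at adjusted p under 0.05 and grey circles did not. Ifi47 and Ifi27 lie at 1.90 and 1.31, Lgals3bp and Xaf1 at -1.37 and -2.50.

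The signal carriers of the pathway were expressed, and none of them passed the test. Ifngr1, the ligand-binding chain of the interferon-gamma receptor, had 210.0, 165.0 and 233.8 normalized counts in knock-out libraries 1 to 3 and 206.8, 153.7 and 144.4 in wild-type libraries 1 to 3. The groups overlapped, with a log2 change of 0.27 (SE 0.21, adjusted p = 0.514). Irf1, a transcription factor induced above all by interferon-gamma, had 284.2, 273.3 and 250.4 in knock-out libraries and 133.4, 243.5 and 239.7 in wild-type libraries. Its groups did not overlap, but wild-type library 1 lay far below the other wild-type libraries. The log2 change of Irf1 was 0.44 (SE 0.25, adjusted p = 0.376), 0.15 without wild-type library 1 (adjusted p = 0.374), 0.99 within set A and 0.18 within set B. Adding the term for the library sets, drawn from these same data, gave 0.59 (adjusted p = 0.0367), where 26.5% of all tested genes passed.

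The 3 genes of type I signalling among the members differed little. Stat2 had 49.8, 32.7 and 52.2 normalized counts in knock-out libraries and 48.0, 39.5 and 27.2 in wild-type libraries (log2 change 0.23, SE 0.30, adjusted p = 0.716). Irf9, the DNA-binding subunit of ISGF3, had 74.2, 57.6 and 75.9 in knock-out libraries and 88.1, 73.1 and 82.6 in wild-type libraries (log2 change -0.23, SE 0.19, adjusted p = 0.541). For both genes the groups overlapped. Irf7, the factor that amplifies type I interferon production, was close to the limit of detection in both groups, at 15.4, 5.2 and 7.1 in knock-out libraries and 12.0, 6.7 and 5.4 in wild-type libraries, and was not tested.

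Sensors of foreign nucleic acid showed no call. Eif2ak2, which encodes the double-stranded RNA-activated kinase PKR, averaged 42.1 ± 4.5 normalized counts in the knock-out label and 53.1 ± 6.2 in the wild-type label (SD, n = 3 each, log2 change -0.33, SE 0.20, adjusted p = 0.397). Ifih1, which encodes the RNA sensor MDA5, averaged 33.7 ± 6.6 in the knock-out label and 34.8 ± 4.8 in the wild-type label (log2 change -0.05, SE 0.24, adjusted p = 0.932). Dhx58, which encodes the related helicase LGP2, reached at most 8.1 in any library. Zbp1, a sensor of Z-form nucleic acid, had 9 reads over the knock-out libraries and 3 over the wild-type libraries, a ratio of 2.93 with an exact 95% interval of 0.73 to 16.8 that covers counting error only. These reads did not resolve whether Zbp1 differed.

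Isg15, the ubiquitin-like modifier, had 31.7, 53.3 and 24.9 normalized counts in knock-out libraries and 14.7, 60.5 and 40.9 in wild-type libraries. Its values followed the library sets and not the genotype labels, with the set B libraries highest in each group. The log2 change was 0.06 (SE 0.54, adjusted p = 0.962), or 0.89 within set A and 0.10 within set B. Usp18, which encodes the protease that removes ISG15 and also damps receptor signalling, lay between 3.4 and 7.6 in all 6 libraries and was not tested.

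Among the 13 antiviral effectors, 7 were tested and none passed, with examples on both sides. Ifitm3 had 1127, 816.5 and 1279 normalized counts in knock-out libraries and 801.8, 477.8 and 484.8 in wild-type libraries. The lowest knock-out library stood just above the highest wild-type library. Ifitm3 averaged 1074 ± 236 in the knock-out label and 588 ± 185 in the wild-type label, with a log2 change of 0.89 (SE 0.26, adjusted p = 0.10). It passed without wild-type library 1 (log2 change 1.13, adjusted p = 0.00822), where 21.1% of all tested genes passed. The log2 difference of Ifitm3 was 0.58 within set A and 0.76 within set B. Rtp4, which encodes a chaperone of G protein-coupled receptors, had 53.4, 37.0 and 51.0 in knock-out libraries and 24.0, 35.3 and 25.4 in wild-type libraries. Its groups were separated by a narrow gap, with a log2 change of 0.72 (SE 0.26, adjusted p = 0.157).

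Ifit1 and Rsad2 lay on the other side. Ifit1, which encodes a protein that binds viral RNA lacking host cap marks, had 28.1, 20.6 and 21.4 normalized counts in knock-out libraries and 33.4, 61.3 and 60.8 in wild-type libraries. All knock-out values lay below the wild-type values, and wild-type library 1 was the nearest of these. The log2 change of Ifit1 was -1.08 (SE 0.31, adjusted p = 0.0919), -1.36 without wild-type library 1 (adjusted p = 0.00916), and -0.43 within set A against -1.52 within set B. DESeq2 called it lower (adjusted p = 0.0431). Rsad2, which encodes the antiviral enzyme viperin, had 10.0, 9.5 and 23.7 in knock-out libraries and 44.0, 31.9 and 25.4 in wild-type libraries. The groups did not overlap, but knock-out library 3 nearly met wild-type library 3, and the log2 change of -1.26 (SE 0.41) had an adjusted p of 0.13. With the term for the library sets, drawn from these same data, it was -1.47 (adjusted p = 0.0128), where 26.5% of all tested genes passed.

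Of the other effectors Bst2 was lower without passing, and the rest were nearly level or too low to test. Bst2, which encodes tetherin, had 80.6, 61.9 and 71.2 normalized counts in knock-out libraries and 94.7, 105.0 and 84.4 in wild-type libraries, with no overlap (log2 change -0.41, SE 0.18, adjusted p = 0.252). Ifit2 averaged 77.3 ± 18.5 in the knock-out label and 74.5 ± 5.7 in the wild-type label (SD, n = 3 each). Samd9l, which encodes a restrictor of translation, averaged 77.4 ± 10.2 in the knock-out label and 83.5 ± 7.0 in the wild-type label. Their log2 changes were 0.03 (SE 0.22) and -0.11 (SE 0.18). Ifit3, Ifit3b, Oas2, Oasl1, Oasl2 and Cmpk2 did not pass the filter, and their values ran between 0 and 16.6 in knock-out libraries and between 0 and 9.2 in wild-type libraries. Ifit3 and Ifit3b are near copies, and 9.86% of the 75-base windows in the last 500 bases of Ifit3 transcripts are also in Ifit3b. The origin of reads from those windows is uncertain. Of the windows at the ends of Ifit3b transcripts, 0 were shared.

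The immunity-related GTPases, which load onto the membranes around intracellular parasites and onto damaged organelles, included the gene with the clearest increase. Ifi47 had 115.9, 78.2 and 109.2 normalized counts in knock-out libraries and 28.0, 21.0 and 30.0 in wild-type libraries. Every knock-out library held more than every wild-type library by a wide gap. Ifi47 averaged 101.1 ± 20.1 in the knock-out label and 26.3 ± 4.7 in the wild-type label, 3.84-fold higher (log2 change 1.90, SE 0.24, adjusted p = 0.00654). Within set A the log2 difference was 1.97 and within set B 1.60. Leaving out knock-out library 1 or 3 gave adjusted p of 0.0559 and 0.051, no longer under 0.05, with log2 changes of 1.79 and 1.83. Ifi47 shares 2.86% of the 75-base windows of its transcript ends with Olfr56, so the origin of reads from those windows is uncertain. The share of its reads that came from them was not measured.

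The other 3 GTPases had positive changes that did not pass. Irgm1, a regulator that keeps effector GTPases off host membranes, had 69.7, 73.9 and 57.0 normalized counts in knock-out libraries and 40.0, 46.2 and 47.2 in wild-type libraries. The groups did not overlap, and the log2 change of 0.57 (SE 0.19) had an adjusted p of 0.143. With the term for the library sets, drawn from these same data, it was 0.65 (adjusted p = 0.0257), where 26.5% of all tested genes passed. Igtp, the related regulator also called Irgm3, had 65.2, 38.7 and 86.6 in knock-out libraries and 52.0, 22.7 and 26.3 in wild-type libraries, with overlap. Its log2 change was 0.92 (SE 0.41, adjusted p = 0.253). Igtp passed without wild-type library 1 (log2 change 1.27, adjusted p = 0.0398), where 21.1% of all tested genes passed. With any other library left out its adjusted p was 0.18 to 0.59. Irgm2 had 10.9, 25.8 and 9.5 in knock-out libraries and 4.0, 18.5 and 19.1 in wild-type libraries. It was higher in the set B library or libraries of each group, and its log2 change of 0.26 (SE 0.65, adjusted p = 0.866) turned to -0.16 and -0.40 without knock-out library 2 or wild-type library 1.

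None of the 8 genes for ubiquitin ligases, ADP-ribosyltransferases and nuclear factors passed. Trim30a, which encodes a TRIM ubiquitin ligase known in mouse to restrain NF-kappaB, had 12.7, 16.3 and 10.7 normalized counts in knock-out libraries and 5.3, 5.0 and 5.4 in wild-type libraries. The groups lay apart at a low level, 2.51-fold in the means, with a log2 change of 1.16 (SE 0.31, adjusted p = 0.0756). Trim30a entered the test only through the knock-out libraries. It passed without the variance trend (adjusted p = 0.0199) and with the term for the library sets (adjusted p = 0.0263). It also passed without wild-type library 1 (log2 change 1.17, adjusted p = 0.047), where 21.1% of all tested genes passed. Trim30a did not pass in edgeR (adjusted p = 0.0591) or DESeq2 (adjusted p = 0.215). With any other library left out its limma adjusted p was 0.151 to 0.255. Sp100, a component of nuclear bodies, had 57.9, 30.9 and 41.5 in knock-out libraries and 25.3, 30.2 and 21.8 in wild-type libraries. Its groups were separated by less than the worth of 1 read, with a log2 change of 0.70 (SE 0.29, adjusted p = 0.216).

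The partners Parp9 and Dtx3l, which form a mono-ADP-ribosyltransferase and ubiquitin ligase complex, averaged 61.0 ± 12.0 and 36.7 ± 9.5 normalized counts in the knock-out label and 47.5 ± 14.0 and 32.6 ± 6.4 in the wild-type label (SD, n = 3 each). Parp14, another ADP-ribosyltransferase gene, averaged 21.7 ± 7.7 in the knock-out label and 12.6 ± 4.3 in the wild-type label. Ifi35 averaged 64.7 ± 16.3 in the knock-out label and 45.3 ± 18.4 in the wild-type label. All 4 had overlapping groups. Phf11d averaged 41.03 ± 2.78 in the knock-out label and 39.32 ± 9.72 in the wild-type label, and 14.1% of the windows at its transcript ends are shared with other Phf11 genes. Helz2, which encodes a helicase and coactivator, had 15.4, 40.4 and 7.1 in knock-out libraries and 4.0, 53.7 and 65.4 in wild-type libraries. It followed the library sets, with a log2 difference of 1.20 within set A and -0.54 within set B (pooled -0.57, SE 1.08, adjusted p = 0.813).

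Of the remaining 4 genes with a row 3 were tested, and all 3 passed, beside 6.92% of all tested genes. These genes share no role and were set together only as the rest of the list. Ifi27, which encodes a small hydrophobic protein of mitochondria and the nuclear envelope, had 360.3, 259.6 and 394.0 normalized counts in knock-out libraries and 112.1, 152.8 and 138.0 in wild-type libraries. Each knock-out library stood well above all wild-type libraries. Ifi27 averaged 337.9 ± 69.9 in the knock-out label and 134.3 ± 20.6 in the wild-type label, 2.52-fold higher (log2 change 1.31, SE 0.21, adjusted p = 0.0146). The difference was 1.74 within set A and 0.83 within set B. Ifi27 no longer passed when knock-out library 1 (adjusted p = 0.0984), knock-out library 3 (0.0799) or wild-type library 3 (0.0569) was left out.

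Xaf1, which encodes an antagonist of the apoptosis inhibitor XIAP, had 3.6, 7.7 and 7.1 normalized counts in knock-out libraries and 26.7, 47.0 and 43.6 in wild-type libraries. The knock-out libraries held only a few reads each and the groups lay far apart. Xaf1 averaged 6.2 ± 2.2 in the knock-out label and 39.1 ± 10.9 in the wild-type label (log2 change -2.50, SE 0.37, adjusted p = 0.0115), and the wild-type mean was 6.35 times the knock-out mean. The difference was -2.18 within set A and -2.41 within set B. Leaving out knock-out library 1 or 3 or wild-type library 2 or 3 ended the call, with adjusted p between 0.051 and 0.0639.

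Lgals3bp, which encodes a secreted glycoprotein that binds galectin-3, had 76.0, 55.0 and 79.5 normalized counts in knock-out libraries and 261.5, 150.3 and 148.9 in wild-type libraries. All knock-out values were lower, and wild-type library 1 was well above the other wild-type libraries. Lgals3bp averaged 70.2 ± 13.3 in the knock-out label and 186.9 ± 64.6 in the wild-type label, with a wild-type mean 2.66 times the knock-out mean (log2 change -1.37, SE 0.28, adjusted p = 0.0341). The difference was -1.74 within set A and -1.43 within set B. Only the omission of wild-type library 1 kept Lgals3bp under 0.05, and omitting any 1 of the remaining 5 gave adjusted p from 0.072 to 0.13. Ifi44 was not tested, with 2 reads over the knock-out libraries and 10 over the wild-type libraries, a knock-out to wild-type ratio of 0.20 with an exact 95% interval of 0.021 to 0.92 that covers counting error only. With no filter its limma adjusted p was 0.138.

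**Figure D3:**
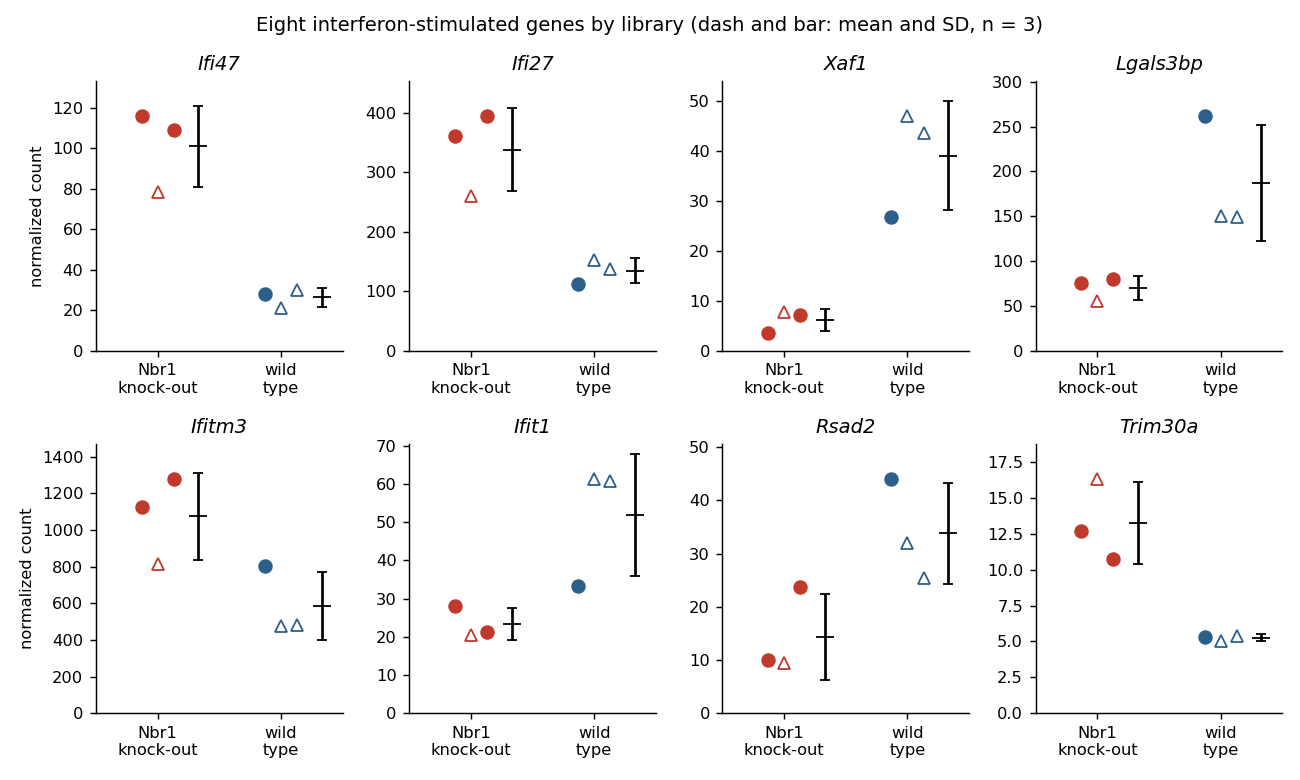
Normalized counts in each library for Ifi47, Ifi27, Xaf1, Lgals3bp, Ifitm3, Ifit1, Rsad2 and Trim30a, Nbr1 knock-out (red) left of wild type (blue), each vertical axis starting at 0, with filled circles for set A, open triangles for set B and mean ± SD (n = 3) in black. In all 8 genes the groups do not overlap, and only the 4 in the top row passed the limma test.

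Counting all 29 tested genes, the 3 values of each group did not overlap for 13. In 8 of these the knock-out values were higher and in 5 lower. Over all tested genes 16.5% lay apart upward and 13.6% downward. Where groups do not overlap, the differences within both library sets must share a sign. Among the 16 genes whose groups overlapped, 9 had the same sign in both sets and 7, Helz2 among them, had opposite signs. Over all tested genes with overlapping groups 54.8% had the same sign.

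**Figure D4:**
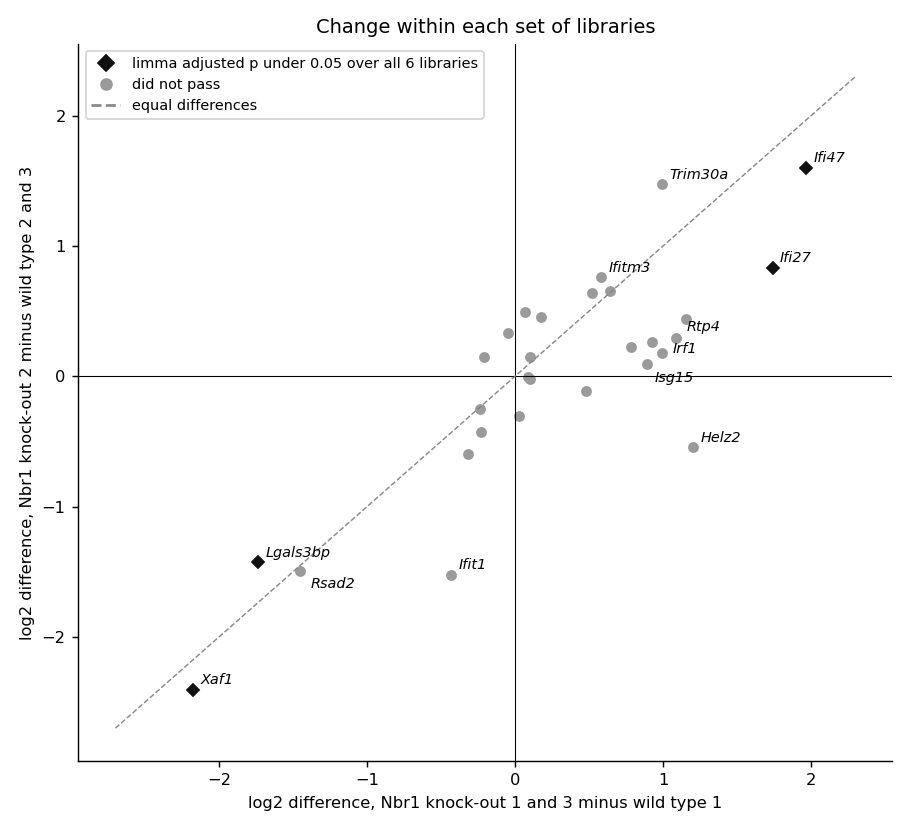
The log2 difference of each of the 29 tested genes within set A (Nbr1 knock-out 1 and 3 minus wild type 1, horizontal) and within set B (Nbr1 knock-out 2 minus wild type 2 and 3, vertical), on log2(normalized count + 1), with a dashed line at equal differences. The 4 genes that passed over all 6 libraries (black diamonds) have groups that do not overlap, which fixes a shared sign, and Helz2 lies at 1.20 in one and -0.54 in the other.

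The rest of the pathway was taken from a list of 98 other genes, of which 73 had a row and 59 passed the filter. Of these, 3 rose and 1 fell, 4 in all (6.92% of all tested genes changed), and their median log2 change was 0.32. Among the receptor and kinase genes 7 were tested and none passed. Ifnar1 had 35.3, 56.7 and 40.3 normalized counts in knock-out libraries and 20.0, 28.6 and 26.3 in wild-type libraries (log2 change 0.78, SE 0.27, adjusted p = 0.145). Ifnar2 had 206.4, 220.9 and 221.9 in knock-out libraries and 173.4, 152.0 and 138.0 in wild-type libraries (log2 change 0.49, SE 0.15, adjusted p = 0.109). Il10rb, a subunit shared by the receptors of interleukin-10 and interferon-lambda, had 147.6, 144.4 and 124.6 in knock-out libraries and 74.7, 98.3 and 89.0 in wild-type libraries (log2 change 0.67, SE 0.18, adjusted p = 0.0751). In these 3 receptor genes the groups did not overlap. Ifnar2 and Il10rb passed without wild-type library 1 (adjusted p = 0.0235 and 0.043), where 21.1% of all tested genes passed. They passed with no other library left out. Jak1, the kinase shared by these receptors, had 1240, 938.5 and 1376 in knock-out libraries and 1187, 697.0 and 730.0 in wild-type libraries, with overlap (log2 change 0.47, SE 0.25, adjusted p = 0.333, or 0.0257 without wild-type library 1).

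Of other STAT and IRF factors, Stat3, Irf2 and Irf3 were tested and did not pass. Stat3, which carries signals of interleukin-6 type cytokines, had 629.1, 598.2 and 634.8 in knock-out libraries and 325.5, 435.9 and 493.0 in wild-type libraries. Its groups lay apart, with a log2 change of 0.59 (SE 0.18, adjusted p = 0.104). Without wild-type library 1, where 21.1% of all tested genes passed, its adjusted p was 0.037. Irf2, a repressor at IRF sites, had 147.6, 147.0 and 140.0 in knock-out libraries and 114.7, 135.2 and 118.0 in wild-type libraries (log2 change 0.24, SE 0.15, adjusted p = 0.40). Irf3, the factor that STING signalling activates, had 64.3, 49.8 and 73.6 in knock-out libraries and 105.4, 54.6 and 56.3 in wild-type libraries (log2 change -0.15, SE 0.31, adjusted p = 0.83). Irf8 had 17 reads over the knock-out libraries and 0 over the wild-type libraries, and an exact 95% interval for their ratio starts at 4.03, counting error only. It did not pass the filter, and with no filter limma called it higher (adjusted p = 0.0294).

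Of 5 restrainers of the pathway with a row 3 were tested and none of them passed. Socs3, the feedback inhibitor of cytokine receptors, followed the library sets, with 70.6, 170.2 and 47.5 normalized counts in knock-out libraries and 18.7, 155.4 and 148.0 in wild-type libraries (log2 change 0.12, SE 0.87, adjusted p = 0.955). Pias1, an inhibitor of STAT binding to DNA, had 106.8, 115.2 and 105.6 in knock-out libraries and 89.4, 152.0 and 161.6 in wild-type libraries (log2 change -0.25, SE 0.25, adjusted p = 0.63). Without wild-type library 1 it was called lower (log2 change -0.52, adjusted p = 0.0407), in a fit that called 21.1% of all tested genes. Ptpn2, a phosphatase of JAK and STAT proteins, had 76.9, 150.4 and 89.0 in knock-out libraries and 92.1, 127.7 and 122.6 in wild-type libraries (log2 change -0.16, SE 0.29, adjusted p = 0.805). Socs1 and Ptpn6 did not pass the filter. Ptpn6 had 4.5, 3.4 and 3.6 in knock-out libraries and 6.7, 12.6 and 9.1 in wild-type libraries, with no overlap, and with no filter its limma adjusted p was 0.142. Of 6 interferon ligand genes on the list, Ifnb1 among them, none had a row in the table used here.

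Of 45 further interferon-stimulated genes tested, 4 changed (8.89%, beside 6.92% of all tested genes). Psmb8, a catalytic subunit of the immunoproteasome, had 28.1, 32.7 and 21.4 normalized counts in knock-out libraries and 1.3, 6.7 and 7.3 in wild-type libraries (log2 change 2.40, SE 0.54, adjusted p = 0.0465). Ifi203, of the PYHIN family of DNA-binding proteins, had 96.0, 92.8 and 99.7 in knock-out libraries and 14.7, 30.2 and 38.1 in wild-type libraries (log2 change 1.86, SE 0.35, adjusted p = 0.0252). Reads it may share with its family members were not measured. Tor3a, an ATPase gene of the torsin family, had 90.5, 52.4 and 79.5 in knock-out libraries and 36.0, 25.2 and 25.4 in wild-type libraries (log2 change 1.31, SE 0.28, adjusted p = 0.0393). Rnf213, which encodes a giant ubiquitin ligase, had 110.4, 121.2 and 130.5 in knock-out libraries and 294.8, 195.7 and 240.6 in wild-type libraries, and fell (log2 change -0.99, SE 0.19, adjusted p = 0.0274). With knock-out library 1 or 3 left out none of the 4 calls held, at adjusted p between 0.101 and 0.189. Ifi203, Psmb8 and Rnf213 also lost theirs without knock-out library 2 (adjusted p = 0.0857, 0.139 and 0.0894), Ifi203, Tor3a and Psmb8 without wild-type library 2 (0.073, 0.138 and 0.0923), and Tor3a, Psmb8 and Rnf213 without wild-type library 3 (0.134, 0.076 and 0.102). Sting1, which encodes STING, averaged 167.4 ± 32.0 in the knock-out label and 115.6 ± 42.6 in the wild-type label, with overlap. Its log2 change was 0.57 (SE 0.29, adjusted p = 0.308). Without wild-type library 1 its adjusted p was 0.027, in a fit that called 21.1% of all tested genes.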

How the data were processed

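RNA of 6 libraries, 3 labelled Nbr1 knock-out and 3 wild type, was read from transcript 3′ ends (QuantSeq forward kit, single reads of 75 bases, per the labels' protocols). The submitters' processing notes name DESeq2 and build GRCm39. No source used here names the aligner, the annotation, or the use of strand and molecular identifiers. The table deposited by the authors holds a normalized count signal, and dividing it by the worth of 1 read gave whole numbers (to within 0.01) for 100% of values in every library. These were taken as read counts. The lowest row sum was 9 reads. All columns were used.

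Genotypes were compared by limma 3.58.1 (R 4.3.3, variance trend, Benjamini-Hochberg adjustment, threshold 0.05). Folds are ratios of mean normalized counts. The log2 changes come from the fit and understate the change of low genes. edgeR 4.0.16 and DESeq2 1.42.0 ran on recovered reads. The fits were also run on simulated counts of independent libraries without library sets. That setting is simpler than these data, so error rates in these data were not tested. Alternatives were pseudocounts of 0.5 and 5, a minimum mean of 50, no filter, no trend, TMM factors, a replicate block, a library set term and each library left out in turn. Library sets were the 2 branches of an average-linkage tree on deviations from group means.

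The members, lists and tests were chosen with earlier results of these data known. Full values are given for genes past an adjusted or unadjusted p of 0.05, the 5 members with the highest mean, Stat2, Irf9, Irf7 and Irf1, and the GTPases Irgm1, Irgm2 and Igtp, and, of the wider pathway, for genes that passed, up to 4 with the smallest p in each list, Ifnar1 and Ifnar2. One gene that this rule names is not reported here, and the rest of the pathway list enters in counts. Helz2, Isg15, Bst2 and other members were described in addition, and Irf8 and Ptpn6 were named after their values were seen. Shared windows come from GENCODE M21 transcripts on GRCm38. Protein identity was not computed.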

Additional observations from a re-analysis of the deposited data

How the results depend on the processing

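With 3 libraries a group and 2 library sets that cross the genotype labels, the counts of calls were sensitive to the fit. Over all tested genes 729 changed, 2791 with the library set term, 380 with a mean of at least 50, where fewer genes are tested, 476 with the replicate block, and 200 to 2228 with 1 library left out. Of the 29 tested members 4 changed, 10 with the set term (6 higher, 4 lower) and 0 to 8 with 1 library left out (0 to 5 higher, 0 to 3 lower). With a mean of at least 50 only 1 member was lower, since Xaf1 is not tested there. Of the other pathway genes 4 changed, 21 with the set term, 2 with a mean of at least 50, and 0 to 20 with 1 library left out. Ifi47, Ifi27, Xaf1 and Lgals3bp passed in every alternative that kept all 6 libraries and in which they were tested.

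Same-numbered libraries had deviations correlated at 0.446, 0.70 and -0.624, so the numbers were not taken to pair the libraries. The replicate block ended no call of a member, and ended those of Psmb8 and Rnf213 (adjusted p = 0.0605 and 0.062). Psmb8 also lost its call with a pseudocount of 0.5 (adjusted p = 0.0563) and Tor3a with a mean of at least 50 (adjusted p = 0.0622).

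No gene that passed changed sign. Among those that did not pass, the set term turned the log2 change of Ifih1 to 0.04, Helz2 to 0.33, Phf11d to -0.03 and Ptpn2 to 0.06. edgeR and DESeq2 turned Isg15 to -0.08 and -0.09 and Socs3 to -0.15 and -0.16. With 1 library left out the log2 change ran from -0.17 to 0.11 for Ifih1, -0.50 to 0.48 for Isg15, -0.15 to 0.19 for Ifit2, -0.40 to 0.60 for Irgm2, -0.04 to 0.29 for Dtx3l, -1.77 to 0.09 for Helz2, -0.09 to 0.26 for Phf11d, -0.31 to 0.15 for Irf3, -0.86 to 0.63 for Socs3 and -0.44 to 0.03 for Ptpn2. The cause was not tested. For the 11 members under the filter, depth sets the limit, since 1 read is worth about 1 normalized count.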

Other observations

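By chromosome, 9 of the 40 interferon-stimulated genes lie on chromosome 11 in RefSeq, as does Nbr1. Of the 8 of them that were tested, Ifi47, Xaf1 and Lgals3bp passed, and Irf1, Irgm1, Irgm2, Igtp and Ifi35 did not. On chromosome 11, 52 of 879 tested genes (5.92%) passed, beside 6.92% of all tested genes. Distances of these genes from Nbr1 were not compared. Ifi27 lies on chromosome 12, where 9.22% of tested genes passed. These shares were looked up after the calls were known.

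Tgtp2, which encodes a further interferon-inducible GTPase, had too few reads for the test, with 25 over the knock-out libraries and 2 over the wild-type libraries (ratio 12.2, exact 95% interval 3.05 to 106, counting error only). With no filter the limma adjusted p of Tgtp2 was 0.0628. Setdb2, a gene for a histone methyltransferase-like protein, had 1 read over the knock-out libraries and 16 over the wild-type libraries. The pooled ratio was 0.061 (interval 0.0015 to 0.39, counting error only). Wild-type libraries 1 to 3 held 0, 10 and 6 of these reads, so the groups overlapped. With no filter the limma adjusted p of Setdb2 was 0.329. Both were named after their values were seen.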
